A study of Mus musculus with 4 samples.

Results

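Protein folding in the lumen of the endoplasmic reticulum (ER) of liver was followed through the transcripts of 10 chaperone genes: Hspa5, Hsp90b1, Hyou1, Calr, Canx, Dnajb9, Dnajb11, Dnajc3, Sdf2l1 and Creld2. Every gene spot that carried one of these names was taken, which gave 21 of 43020 gene spots, 12 of 39429 probes and 10 of 22803 named genes. Expression was compared between fasted livers, from mice without food for 24 h, and refed livers, from mice that had the same 24 h fast and then food for 2 h. All were male C57BL/6J mice aged 8 to 12 weeks (strain label C57/Bl6), and a full fast therefore preceded both groups. RNA of 4 fasted and 4 refed livers was hybridised to 4 two-colour arrays, with 1 fasted and 1 refed liver paired at random on each. Each array counts as a replicate (n = 4), and the fasted liver carried the red dye Cy5 on replicates 1 and 2 and the green dye Cy3 on replicates 3 and 4.

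Secreted and membrane proteins enter the ER unfolded and are bound there by chaperones that hold them until they fold. When unfolded proteins build up, the sensors IRE1, PERK and ATF6 start the unfolded protein response, which raises chaperone transcription through the factors XBP1 and ATF6. Hepatocytes secrete most plasma proteins and depend on this machinery throughout life.

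Read by the brightest probe of each gene, all 10 transcripts had lower mean levels in fasted than in refed liver, and for 9 of the 10 the difference passed the test. A second, dimmer probe of Dnajb11 pointed the other way, and with the probes of a gene averaged 8 of the 10 passed. With the background fitted on all spots, including 55 with extreme local background that were otherwise left out, 2 of the 10 passed and 11 genes in all were called lower, in place of 303. The differences, given as log2 ratios of fasted over refed liver, ran from -2.94 ± 0.52 (SD, n = 4) for Creld2 and -2.61 ± 0.26 for Sdf2l1 through -2.01 ± 0.69 for Hspa5 to -0.42 ± 0.40 for Canx, the gene that did not pass. Expressed the other way, refed liver held 7.69-fold more Creld2, 6.09-fold more Sdf2l1 and 4.02-fold more Hspa5 RNA than fasted liver. A difference passed, or was called, where it reached 1.5-fold in size and limma gave it an adjusted p below 0.10. Among all 13022 named genes with a usable probe, 2.33% were called lower in fasted liver.

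The promoters of these genes are shown first, because most of them share an element that is known to bind the factors of the unfolded protein response. The ER stress element, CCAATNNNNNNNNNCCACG on either strand, was searched in a RefSeq promoter table (GRCm38.p6, 250 bases before to 50 after each gene start) that held 9 of the 10 genes. Hyou1 was not in it. The element occurred in 6 of the 9 chaperone promoters and in 39 of 32851 promoters of the table (0.119%). It was defined on promoters of this kind, Hspa5 among them, so its frequency here is background and not a result of these arrays. The matches are printed with the ends of the element, or of its reverse complement, in capitals and 11 bases on either side, all on the strand of the gene.
Hspa5: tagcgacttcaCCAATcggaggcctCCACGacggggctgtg
Hsp90b1, distal: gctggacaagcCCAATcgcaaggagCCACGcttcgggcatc
Hsp90b1, proximal: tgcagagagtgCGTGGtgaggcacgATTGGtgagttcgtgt
Calr: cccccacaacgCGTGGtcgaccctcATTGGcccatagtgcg
Canx: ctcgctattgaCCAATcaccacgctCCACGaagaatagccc
Dnajc3: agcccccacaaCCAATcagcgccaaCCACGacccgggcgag
Creld2: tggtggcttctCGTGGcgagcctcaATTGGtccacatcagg

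In GRCm38.p6 the windows lie at chr2:34772014-34772054 for Hspa5 on the plus strand and at chr10:86705627-86705667 and chr10:86705522-86705562 for Hsp90b1 on the minus strand. Those of Calr (chr8:84847064-84847104) and Canx (chr11:50325789-50325829) are on the minus strand, and those of Dnajc3 (chr14:118937816-118937856) and Creld2 (chr15:88819509-88819549) on the plus strand. All matches began upstream of the gene start, between 65 bases before it in Hspa5 and 212 bases before it in Hsp90b1. Dnajb11 held a shorter form, ER stress element II (ATTGG, any base, then CCACG, on either strand, in 0.0365% of all promoters), 7 bases after its start. It is shown for the contrast with the longer element.
Dnajb11: cggcggcgATTGGcCCACGcctggctg

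This window spans chr16:22857844-22857870 on the plus strand. Neither element was found in the Dnajb9 and Sdf2l1 windows, whose ratios were among the lowest, while Canx, whose difference was smallest, carried a full match. The core CCACG occurred in 9 of 9 chaperone promoters, but also in 32.8% of all promoters. Letters of the cAMP response element were searched as well, because the study concerned the cAMP-responsive factor CREB. The full element TGACGTCA, with every letter exact, occurred in 0 of 9 chaperone promoters and in 1.79% of all promoters. Its core TGACG occurred in 4 of 9 and in 20.8%, and the related letters TGACGTG in 1 of 9 (Hspa5) and in 2.01%. Each search covered both strands, and the core lies within both longer forms. The study itself allowed a mismatch in the full element and measured CREB binding, and it names Creld2 among the bound genes. Absence of the exact letters therefore does not show absence of CREB.

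**Figure D1:**
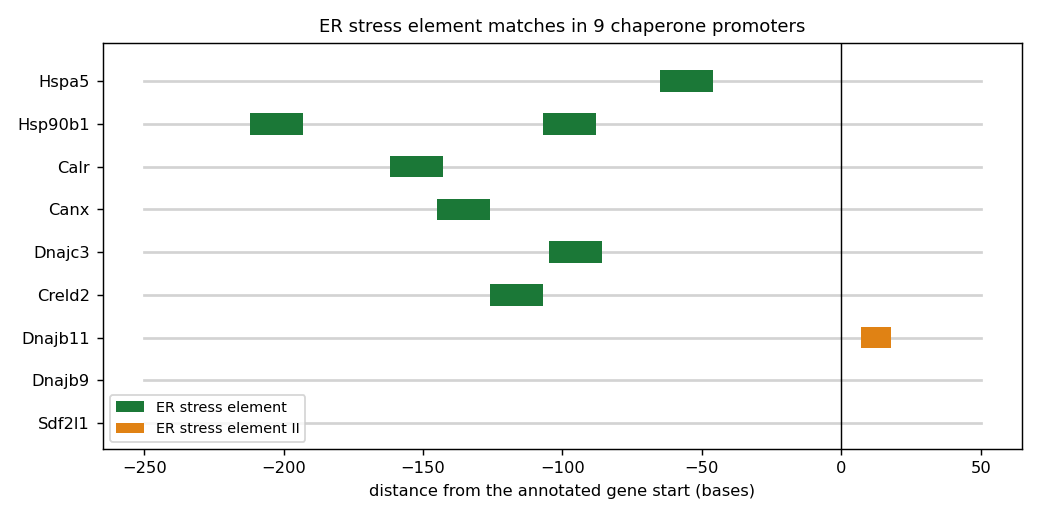
Position of ER stress element matches in 9 chaperone promoters. The x axis gives the distance from the annotated gene start in bases, each grey line is the 300-base window searched, and bars are matches drawn to scale. The longer element lies upstream of the start in 6 promoters, and the shorter one lies just after the start of Dnajb11.

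Outside the chaperones, 12 further genes with a usable probe carried the full ER stress element, and 5 of them were called lower in fasted liver, against 2.39% of the 10014 genes with a usable probe and a promoter in the table. These were Derl3, Syvn1 (with another probe at 0.10), Pdia6, Acnat2 and Ero1b (named Ero1lb on the array). All but Acnat2 act in ER protein folding or disposal. The element was defined on promoters of such genes, and this set was read after values were seen, so its share is a description only. One of the 12, Acacb, was called higher at 0.68. A match is a description of the letters, and binding was not measured here.

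The median gene spot had a brightness of 40 to 75 in the red and 44 to 96 in the green channel over median local backgrounds of 20 to 35. Of the 39429 probes, 19719 were well above background on all 4 arrays in at least 1 condition and were tested. All 12 chaperone probes were among them, each well above background in all 8 livers, and no gene spot was saturated. The 12 hepatocyte markers that were measured were well above background in all 8 livers, and Igfbp1, G6pc, Pck1 and Ppargc1a, which are known to rise on fasting, were called higher in fasted liver. Livers also differed in signal of other cell types. In the refed liver of replicate 3, the summed level of 23 pancreatic acinar genes was 60712, against at most 2688 in the other refed livers and 2590 to 3536 in fasted livers. The exocrine pancreas is rich in ER chaperones, and the chaperone results are therefore also given without replicate 3. The haemoglobin genes Hbb-b1, Hbb-b2, Hba-a1 and Hba-a2 had ratios of 2.08 to 2.48 on replicates 1 and 3 and of -0.27 to 0.65 on replicates 2 and 4. The 13 markers of blood and immune cells summed to 71274 to 290434 in fasted and 37722 to 91118 in refed livers, and their part in the chaperone differences was not tested. Plasma and B cells, also rich in these chaperones, left little signal. Their 12 markers summed to 1180 to 1250 in fasted and 1150 to 1244 in refed livers, and the markers Ms4a1, Tnfrsf17 and Irf4 were well above background in none. In RNA of whole tissue, fewer cells of a type and less RNA per cell cannot be told apart.

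Hspa5 encodes BiP, the Hsp70 chaperone of the ER lumen and the hub on which most of the other members act. Its probe (mm9 chr2:34631913-34631972) had log2 intensities of 14.37, 14.36, 13.69 and 13.70 in the fasted livers of replicates 1 to 4. The refed livers gave 15.44, 16.28, 16.23 and 16.20. Every fasted liver lay below every refed liver, and the refed liver of replicate 1 was the lowest of the refed group. The ratios were -1.07, -1.92, -2.54 and -2.50, and the mean of -2.01 had an adjusted p of 0.0131 in limma. Without replicate 3 the mean was -1.83, with an adjusted p of 0.0584 in limma.

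Hsp90b1 encodes GRP94, the Hsp90 of the ER, which takes over clients such as integrins from BiP. Its log2 intensities (mm9 chr10:86153770-86153829) were 13.82, 13.80, 13.33 and 13.45 in fasted livers and 14.45, 15.46, 15.30 and 15.39 in refed livers. The groups did not overlap, and replicate 1 again held the lowest refed liver. The ratios of -0.63, -1.66, -1.98 and -1.93 averaged -1.55 ± 0.63, with an adjusted p of 0.0196 in limma.

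Hyou1 encodes GRP170, a large relative of Hsp70 that exchanges the nucleotide of BiP. Its probe (mm9 chr9:44199354-44199413) was dim, at 6.76, 6.94, 6.61 and 6.63 in fasted livers and 6.99, 7.70, 7.80 and 7.72 in refed livers. The groups were separate by only 0.052, between fasted replicate 2 and refed replicate 1. The mean ratio was -0.82 ± 0.43 with an adjusted p of 0.0418 in limma, and the call was lost without replicate 2 (adjusted p = 0.129), without replicate 3 (0.149) or without replicate 4 (0.136). The size of the difference also depended on the background step, from -0.26 with the background fitted on all spots to -1.53 with Agilent's own processed signals.

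**Figure D2:**
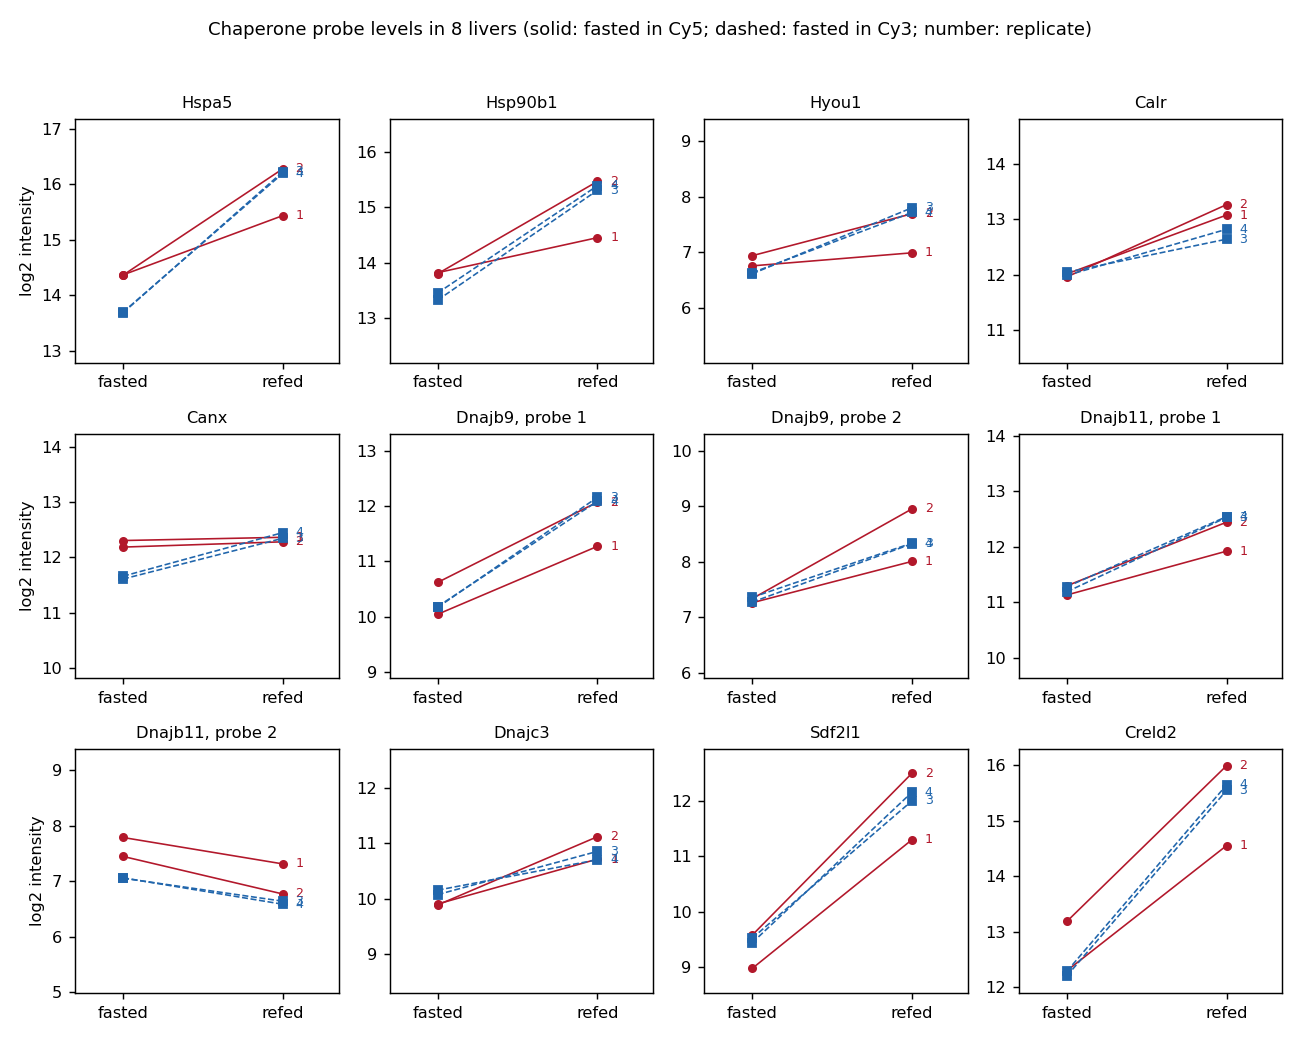
Log2 intensity of the 12 chaperone probes in 4 fasted and 4 refed livers, with a line for each array and its replicate number. Solid red lines are arrays with the fasted liver in Cy5 and dashed blue lines those with it in Cy3; all panels span the same height but start at different levels. The lines rise from fasted to refed liver in every panel except the dim second probe of Dnajb11, and refed replicate 1 is the lowest refed liver for Hspa5, Hsp90b1 and Creld2 among others.

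The 3 J-domain proteins, which deliver clients to BiP and start its ATP hydrolysis, were all called lower by their brighter probes. Dnajb9 (ERdj4), which also restrains the sensor IRE1 through BiP, had log2 intensities of 10.05, 10.62, 10.17 and 10.19 in fasted livers. They were 11.27, 12.07, 12.16 and 12.08 in refed livers. The groups were 0.65 apart, and the mean ratio was -1.64 ± 0.36 with an adjusted p of 0.00504 in limma. A second, dimmer probe for Dnajb9, which starts 959 bases from the first, gave ratios of -0.75, -1.62, -1.05 and -0.98 and was called lower as well (mean -1.10 ± 0.37, adjusted p = 0.0152 in limma). The probes of Dnajb9 thus pointed the same way, at different sizes.

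Dnajc3 (p58IPK), a J-domain protein that binds unfolded clients and is also known as an inhibitor of PERK, lay at 9.91, 9.89, 10.08 and 10.16 in fasted livers. It lay at 10.72, 11.12, 10.85 and 10.70 in refed livers. The groups did not overlap, and the mean ratio was -0.84 ± 0.28 with an adjusted p of 0.0177 in limma. Replicate 4, at -0.55, was the single array under a 1.5-fold difference.

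Dnajb11 (ERdj3), a soluble partner of BiP that can also be secreted, was measured by 2 probes that disagreed. The first 30 bases of each are shown because the sign of the result depends on which is read.
Dnajb11, brighter probe: tctcagaggatgcccgagcaaaggaaacca
Dnajb11, dimmer probe: gctacaagggaggttaaaggttaaagcgtt

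In mm9 the brighter probe lies at chr16:22872067-22872126 and the dimmer one at chr16:22879612-22879671, 7545 bases downstream on the same strand. The brighter probe read 11.13, 11.29, 11.19 and 11.28 in fasted and 11.92, 12.44, 12.53 and 12.54 in refed livers, a mean ratio of -1.14 ± 0.24 with an adjusted p of 0.00620 in limma. The dimmer probe read 7.79, 7.45, 7.05 and 7.06 in fasted and 7.31, 6.77, 6.64 and 6.59 in refed livers. Its 4 ratios were all positive, from 0.41 to 0.68. The mean of 0.51 ± 0.11 had an adjusted p of 0.0207 in limma, but at 1.43-fold it missed the limit on size and was not called. It was called higher in fasted liver with the background subtracted (0.86), with Agilent's processed signals (0.95), with a smaller normexp offset (0.73) and in the deposited ratios (0.65). The brighter probe minus the dimmer one gave -1.27, -1.82, -1.76 and -1.74 on the 4 arrays. That gap had a mean difference of -1.65 ± 0.26 and an exact two-sided sign-flip p of 0.125, the smallest that 4 arrays allow, or 0.161 after adjustment over the 9 pairs compared in this way. Averaged over both probes, Dnajb11 stood at -0.31 and was not called. Which transcripts each probe binds was not tested.

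Calr and Canx encode calreticulin and calnexin, the lectin chaperones that hold glycoproteins with a trimmed sugar, the first free in the lumen and the second anchored in the membrane. Calr (mm9 chr8:87366192-87366251) read 12.01, 11.96, 12.04 and 11.99 in fasted livers, the narrowest spread of any member, and 13.08, 13.26, 12.64 and 12.82 in refed livers. Its mean ratio was -0.95 ± 0.30, with an adjusted p of 0.0151 in limma. Canx (mm9 chr11:50108047-50108106) read 12.31, 12.19, 11.61 and 11.66 in fasted and 12.36, 12.28, 12.35 and 12.45 in refed livers. The groups of Canx overlapped. Its ratios were -0.06 and -0.09 on replicates 1 and 2 but -0.73 and -0.79 on replicates 3 and 4, and the mean of -0.42 ± 0.40 had an adjusted p of 0.176 in limma. The pair differed by -0.53 ± 0.67 on average, less than the spread between arrays (exact two-sided sign-flip p = 0.375).

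The arrays on which Canx differed were those with the fasted liver in Cy3, and the dye effect of Canx had the lowest adjusted p of any member (0.0378 in limma with a dye term). In that fit its difference had an adjusted p of 0.00732 and still missed the 1.5-fold limit. The dye effects of Dnajb9 (0.0561), Creld2 (0.0649) and Hspa5 (0.0788) had the next lowest adjusted p. In 7 of the 10 genes the mean ratio was lower with the fasted liver in Cy3, for Hspa5 at -2.52 against -1.49 with the fasted liver in Cy5. It was the other way round in Calr (-0.71 against -1.18) and Dnajc3 (-0.66 against -1.02), and nearly equal in Sdf2l1 (-2.59 against -2.62). Each orientation held 2 arrays with different liver pairs, so the fit set the dye effect against the spread between very few pairs. On a single array, dye and liver pair cannot be told apart. The fit with a dye term called the same 9 genes lower.

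Sdf2l1 and Creld2 differed most. Sdf2l1, a small ER protein that works with Dnajb11 to keep clients soluble, read 8.97, 9.57, 9.52 and 9.44 in fasted livers. It read 11.29, 12.49, 11.99 and 12.15 in refed livers (mm9 chr16:17130426-17130485). The groups were 1.72 apart, the widest gap of any member, and the mean ratio of -2.61 had an adjusted p of 0.00171 in limma. Creld2, an ER protein with EGF-like domains known to be induced by ER stress, read 12.30, 13.19, 12.21 and 12.29 in fasted livers and 14.56, 16.00, 15.55 and 15.65 in refed livers. Its ratios were -2.26, -2.81, -3.35 and -3.36, with an adjusted p of 0.00278 in limma. The Creld2 probe (mm9 chr15:88656997-88657056) was printed 10 times on each array, with 9 spots usable on replicate 4. The SD between its spots was 0.033 to 0.108 within an array, and the SD between arrays, which hold different livers, was 0.52.

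**Figure D3:**
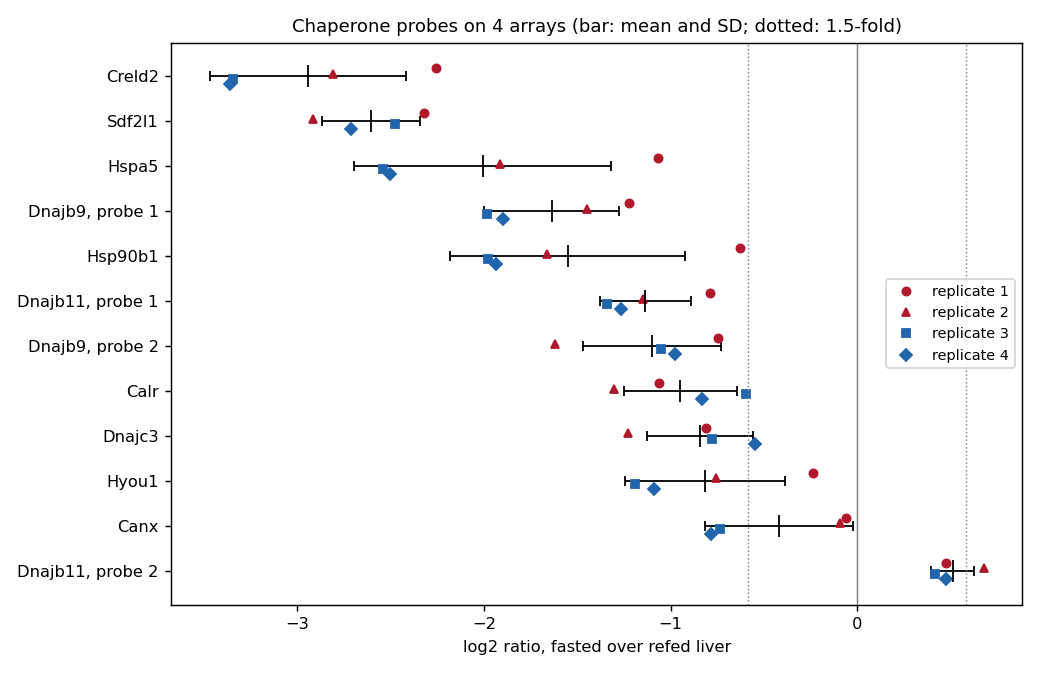
Log2 ratios of fasted over refed liver for the 12 chaperone probes, ordered by mean. Points are single arrays (red, fasted liver in Cy5; blue, fasted liver in Cy3), the vertical tick and bar are the mean and SD, and dotted lines mark a 1.5-fold difference. Creld2 and Sdf2l1 lie below -2 on every array, Canx splits by dye orientation, and the dimmer Dnajb11 probe lies above 0 on every array.

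As a group, the chaperones had a median ratio of -1.34 against 0.003 over all 13022 genes. The median was -0.93, -1.38, -1.66 and -1.58 on replicates 1 to 4. Every array thus showed the difference, and replicate 1 showed it least. Replicate 1 was also the dimmest array, with median brightness of 40 in red and 44 in green. Over its spots the deposited ratios correlated at 0.53 with those used here, against 0.92 to 0.96 on replicates 2 to 4. On replicate 1 the deposited ratios of Hspa5 and Creld2 were -1.12 and -2.29. The part of these technical differences was not tested. The smallest difference of a gene fell on replicate 1 for 8 of the 10 genes, and the refed liver of that replicate was the lowest refed liver for 7 of them. In 9 of 10 genes every fasted liver lay below every refed liver, a pattern seen in 8.62% of all genes tested. At least a 1.5-fold difference on every array was found for 7 of 10, all but Dnajc3, Hyou1 and Canx, against 0.814% of all genes. Of the 12 probes 10 were called lower, against 2.08% of all probes tested.

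Without replicate 3, the array with the acinar signal, 8 of 10 genes were called lower and the median was -1.24. Hyou1 was the call lost. Its mean of -0.69 was still past 1.5-fold, but its adjusted p in limma was 0.149. Creld2 (-2.81), Sdf2l1 (-2.65) and Hspa5 (-1.83) kept their calls. The Calr ratio was closest to 0 on that array, at -0.60.

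Among all 13022 genes ordered by mean ratio, Creld2 stood 3rd from the lowest, Sdf2l1 5th, Hspa5 11th, Dnajb9 26th and Hsp90b1 29th, and Canx 708th. Within the group the order was firm only in outline. Of the 45 pairs of members, 31 had the same order on all 4 arrays. Neighbours in the order differed by more than the SD of their difference only between Hspa5 and Dnajb9, between Hsp90b1 and Dnajb11, and between Hyou1 and Canx. The genes outside the group whose 4 ratios lay nearest to the chaperone medians, by Euclidean distance over 4 arrays, were Piga (0.16), Cacybp (0.26), Alas1 (0.28), Gm6788 (0.40) and Ccdc134 (0.45).

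Other ER genes were read from 4 further lists. Of 33 tested among 36 further folding factors, 6 were called lower and 0 higher, and the list median was -0.08. Without replicate 3, 4 were called. The largest differences were those of Manf (-1.98 ± 0.37), a secreted cofactor of BiP, Serpinh1 (-1.10 ± 0.29), the collagen chaperone, Hspa13 (-1.03 ± 0.26, with another probe at -0.34) and the glucosidase Mogs (-0.88 ± 0.38). Sil1, the other nucleotide exchange factor of BiP, stood at 0.06 ± 0.27. Among disulfide isomerases and oxidases, 6 of 21 tested were called lower (5 without replicate 3), with a median of -0.22. Pdia6 (-1.12), Pdia4 (-1.07), the oxidase Ero1lb (-0.98) and Pdia3 (-0.93), the partner of calnexin and calreticulin, led that list.

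Genes of ER-associated degradation, which returns misfolded proteins to the cytosol, were called lower in 7 of 32 cases (6 without replicate 3), with a median of -0.12. Derl3, a membrane protein of that pathway, had a mean ratio of -3.24 ± 0.74, below that of every chaperone. The ubiquitin ligase gene Syvn1 (-2.33) followed, though its other probe read 0.10, and then its partner Sel1l (-1.18) and Herpud1 (-1.07). Of 24 sensors and factors of the unfolded protein response, 4 were called lower (3 without replicate 3) and 1 higher, with a median of -0.14. Those lower were Ddit3 (-1.81 ± 0.17), which encodes the factor CHOP, Xbp1 (-0.88 ± 0.15), Eif2ak3 (-0.83 ± 0.39), which encodes PERK, and Wfs1 (-0.83 ± 0.38). The one higher was the pseudokinase gene Trib3 (0.75 ± 0.49), where 1.92% of all genes were called higher. This call too was lost without replicate 3. Ern1, which encodes IRE1, and Atf6 did not pass the test, at -0.20 ± 0.24 and -0.06 ± 0.35. The arrays do not measure splicing of Xbp1 or cleavage of ATF6.

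Relatives of the members in other compartments were compared next. Of 24 cytosolic and mitochondrial relatives tested, 11 were called lower and 0 higher, and their median was -0.50. Without replicate 3, 7 of them were called lower, and with the background fitted on all spots 0 were. The cytosolic Hsp70 genes Hspa8 (-1.13 ± 0.70) and Hspa1a (-1.84 ± 0.51) were lower, and the mitochondrial Hsp70 gene Hspa9 stood at -0.03 ± 0.25. Hspa1a has a near-identical copy, Hspa1b, with which its probe may share RNA. Hspa5 lay below Hspa8 by -0.88 ± 0.23 and below Hspa9 by -1.98 ± 0.49, with that sign on all 4 arrays. Among Hsp90 genes, cytosolic Hsp90aa1 (-2.08 ± 0.65) and Hsp90ab1 (-0.99 ± 0.44) were called lower and mitochondrial Trap1 (0.03 ± 0.15) was not. Hsp90b1 lay above Hsp90aa1 by 0.53 ± 0.22 and below Trap1 by -1.59 ± 0.78, again with one sign on all 4 arrays. Against Hsp90ab1 it lay lower by -0.57 ± 0.39, also with one sign on all 4 arrays. The cytosolic Hsp110 gene Hsph1 (-2.28 ± 0.35) differed more than its ER relative Hyou1, which lay above it by 1.47 ± 0.20, and Hspa4 (-0.18 ± 0.35, with other probes at -0.72, called lower, and -0.33) did not pass by its brightest probe. Bag3, a cochaperone of Hsp70, read -1.81 ± 0.32. Each of these 6 gaps has the exact two-sided sign-flip p of 0.125 that 4 arrays allow at best, and 0.161 after adjustment over the 9 pairs. Among the genes named in these lists, Mogs, Pdia4, Wfs1, Trib3, Hspa8 and Hsp90ab1 lost their calls without replicate 3. The adjusted p in limma was 0.1004 for Pdia4, 0.109 to 0.189 for Mogs, Wfs1, Hspa8 and Hsp90ab1, and 0.215 for Trib3. Their means were then -0.87 (Mogs), -1.03 (Pdia4), -0.82 (Wfs1), 0.73 (Trib3), -0.99 (Hspa8) and -0.92 (Hsp90ab1). All of these stayed past the 1.5-fold limit, so the calls were lost on the adjusted p. No list was tested as a whole.

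**Figure D4:**
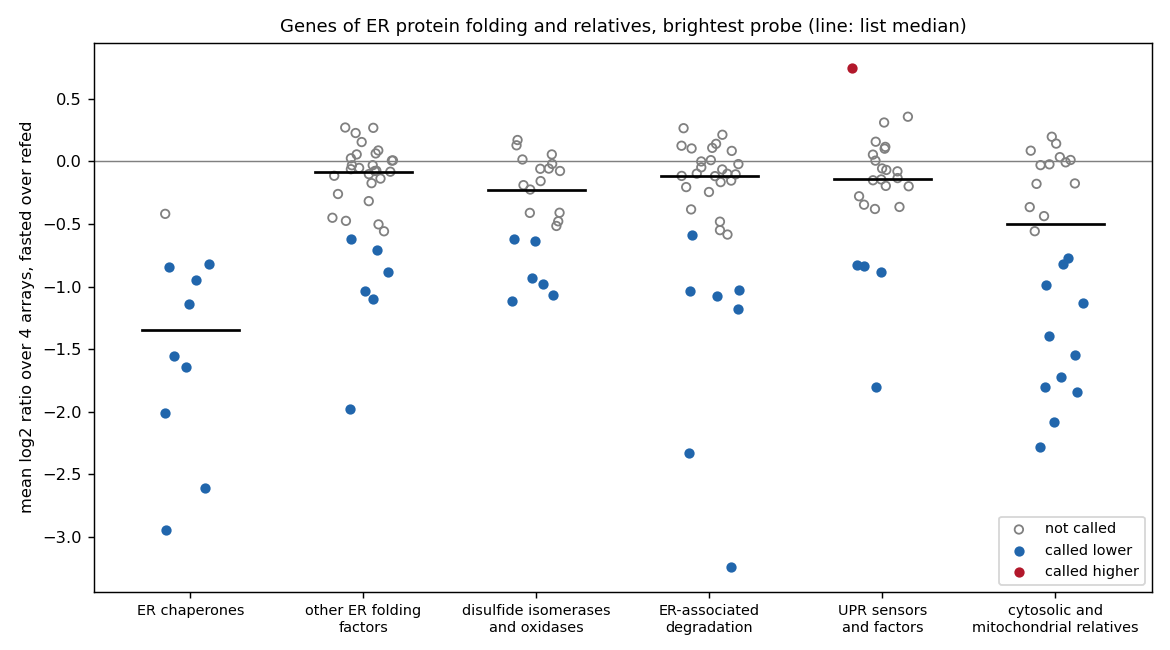
Mean log2 ratio of fasted over refed liver over 4 arrays for each tested gene of the chaperone group and 5 related lists, by the brightest probe of a gene. Filled blue points were called lower, the filled red point (Trib3) was called higher, open points were not called, and the black line is the list median. The chaperone median is -1.34, the cytosolic and mitochondrial relatives follow at -0.50, and the other 4 medians lie between -0.22 and -0.08.

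The background step moved some means and some calls. The mean ratio of Hspa5 lay between -2.32 and -1.83 over all 18 alternatives, and that of Creld2 between -3.17 and -2.80. When the background was fitted on all spots, including those with extreme local backgrounds, the Hspa5 mean was -2.01 but its adjusted p in limma rose to 0.212, and Creld2 and Dnajb11 were the 2 members still called. In that setting the means of Sdf2l1 and Dnajb9 moved to -1.84 and -1.14, and Hsp90b1 and Calr lost their calls at nearly the same means.

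**Figure D5:**
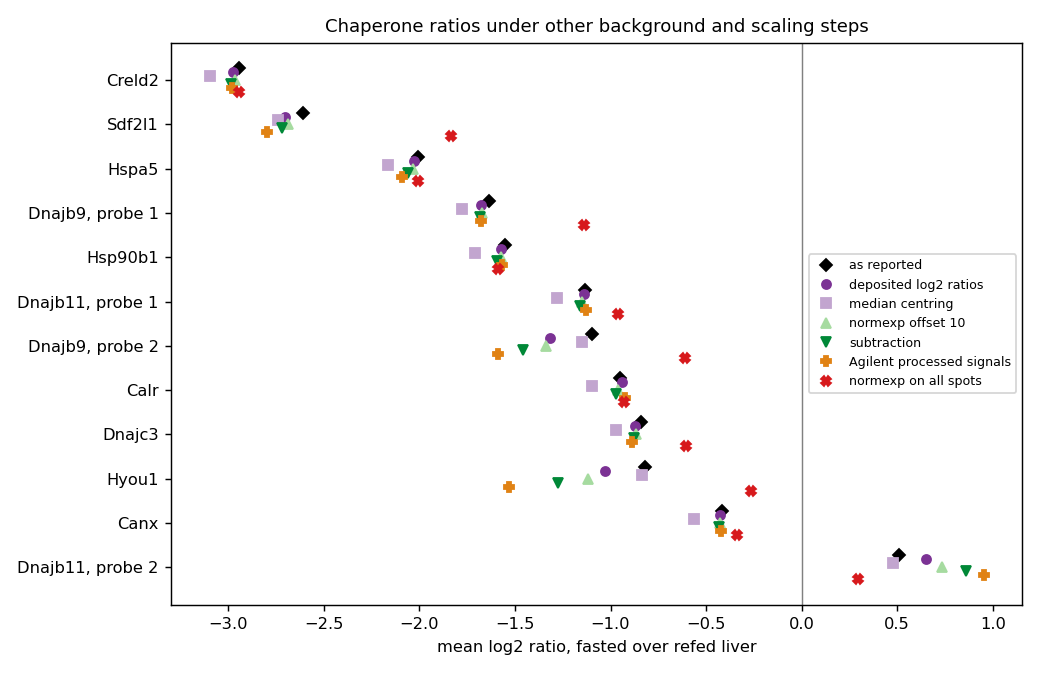
Mean log2 ratio of the 12 chaperone probes under 7 ways of removing background and scaling. Each symbol is one setting, with black diamonds for the values given above. The means of Hspa5, Hsp90b1 and Calr lie close together over the background settings, those of Hyou1, Sdf2l1 and both Dnajb9 probes are farther apart, and every probe keeps its sign.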

How the data were processed

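RNA of individual livers (200 ng each) was compared on two-colour Agilent arrays. The authors deposited scanner files with the raw intensity of each spot in both channels, and a table of log2 ratios normalized by loess in limma. Here, median intensities were corrected with normexp (offset 50) and loess in limma 3.58.1 (R 4.3.3). Spots with a local background over 3 times the array median (55 of 177588) were left out first, and flagged spots were left out after loess. An earlier treatment of these data had settled these steps after seeing calls. Ratios were turned to fasted over refed, 19719 probes were tested with lmFit and eBayes and adjusted by Benjamini-Hochberg over all of them, and genes were read by their brightest probe. Levels per liver were scaled between arrays (Aquantile). The methods of the study name SAM, rebuilt as an alternative with 16 sign flips. In data simulated for fasted against refed liver (19719 probes, 200 changed by 1.5 on the log2 scale), 98.5% of changes were recovered and 2.96% of calls were false. The simulated noise was normal and independent between probes, without effects of array, dye or background. The planted change was larger than that of several members, such as Hyou1 (-0.82) and Calr (-0.95). These rates therefore do not cover smaller differences or the background step. Members and lists were chosen with earlier results of these data known. The genes named are all members, the 4 called genes of each list with the largest ratios, relatives by family, Xbp1, Atf6, Ern1 and Eif2ak3, and the nearest 5 genes. Creb-related letters, genes carrying the ER stress element, Sil1 and the ER stress element II of Dnajb11 were chosen after values were seen. Probes were named through a RefSeq table (26055 by accession, 4125 by symbol or synonym). With 4 arrays, precision is set by their number. Alternatives covered background, scaling, filters, flags, dye, test, thresholds, probe choice and single replicates.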

Additional observations from a re-analysis of the deposited data

Results flagged for a closer look

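The median log2 ratio of the 7 tested pancreatic acinar genes was -2.96 on replicate 3, far from the other arrays at 0.02, -0.04 and -0.02. Sycn (-5.39) and Clps (-5.05) read lowest on that array. It was the 1 of 22 measures compared in this way, chaperone ratios included, in which one array lay apart from the rest, and chance would give about 1 in 20. The chaperone median without replicate 3 was -1.24.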

How the results depend on the processing

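Each of the 12 probes kept its sign under every alternative in which it was read on its own, and Dnajb11 stood at -0.31 with its probes averaged, and between single left-out replicates 8 to 9 chaperones were called. With normexp on all spots, including those with extreme local background, calls fell to 2 chaperones (Creld2 and Dnajb11), 11 genes and 14 probes lower, 5 genes higher, and 1, 0, 1, 0 and 0 genes in the lists of other folding factors, disulfide isomerases, degradation, unfolded protein response and relatives. Genes and probes called lower were 502 and 714 with subtraction, 608 and 904 with Agilent's processed signals (454 genes higher), and 485 and 635 with median centring, where 10 other folding factors were called and 25.7% of calls were higher rather than 45.2%. Median centring left the median of all genes at -0.17 on replicate 1. With no fold limit 918 genes and 1215 probes were lower, 677 genes higher, and 10 disulfide isomerases and 7 response genes called. With a 2-fold limit these were 94, 132, 76, 2 and 1, with 3 other folding factors and without Hyou1, Calr and Dnajc3. Single left-out replicates gave 187 to 380 genes and 256 to 525 probes lower, 153 to 309 genes higher and 7 to 12 relatives, the lowest counts without replicate 3. Dim signals limit Hyou1 and the second probes of Dnajb9 and Dnajb11. Probes of low brightness rest on small differences from background, and 4 arrays limit every p-value. The cause of each change was not tested.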
